A study of Homo sapiens with 27 samples.

Results

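The circadian clock was followed through 10 of its genes in Panc1 cells, a human line established from a pancreatic ductal adenocarcinoma. The genes are CLOCK and NPAS2, which activate transcription, PER1, PER2, PER3, CRY1 and CRY2, which form the main repressor complex, and NR1D1, BHLHE40 and BHLHE41, which repress through separate routes. They were picked by name from a table of 21487 genes, with earlier results of these data known. Each carries a PAS domain or represses the clock. Other clock genes of these kinds, among them BMAL1 and CIART, are described further below. All 10 were among the 13943 genes with enough counts to be tested, and the lowest count of any of them in a library was 114, for CLOCK. PolyA RNA had been sequenced in 27 libraries, which fell into 9 groups of 3. ARNT-knockout clone A, ARNT-knockout clone B and parental cells were each held for 48 hours in hypoxia (1% O2) with TIFM, in hypoxia with regular medium, or in normoxia (20% O2) with regular medium. Regular medium was DMEM with fetal bovine serum and antibiotics, and TIFM is a culture medium composed after the interstitial fluid of pancreatic tumors. The clones were made with CRISPR-Cas9 to test what ARNT contributes to the response to hypoxia, and each knockout line is 1 clone.

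In the clock of mammalian cells, CLOCK or its relative NPAS2 pairs with BMAL1 through basic helix-loop-helix (bHLH) and PAS domains and activates genes that carry E-boxes, among them PER, CRY, NR1D1, BHLHE40 and BHLHE41. PER and CRY proteins bind the activator pair and silence it, NR1D1 (REV-ERB alpha) represses the BMAL1 gene, and BHLHE40 (DEC1) and BHLHE41 (DEC2) compete for the E-boxes. ARNT belongs to the same bHLH-PAS class, and as the partner of HIF1A or EPAS1 it binds hypoxia response elements, whose core letters overlap with the E-box; BHLHE40 is a long-known target of these factors. All cells were taken at a single time, so a level here says nothing about the phase or strength of a rhythm.

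The libraries held 26057022 to 38341713 counts (median 31727174). No label says that the 3 libraries of a group came from separate cultures, so p-values measure the spread between these libraries only. ARNT was transcribed in every group (group means 48.8 to 75.5 CPM, read counts normalised for library size and composition), which does not check the knockout, because editing need not stop transcription. Of 6 markers of this epithelial cancer line with mesenchymal traits, KRT8, KRT18, KRT19 and VIM averaged about 116 CPM or more in every group, EPCAM 18.1 to 37.3 and KRT7 2.51 to 9.30. Their levels differed between groups, as given below. By contrast, 14 markers of blood, endothelial, pancreatic and liver cells summed to at most 11.7 CPM in any library. Libraries in TIFM varied most, with a biological coefficient of variation of 29.2% in clone A, 17.3% in clone B and 17.3% in parental cells. In clone A in TIFM, replicate 3 stood apart: it had 98 counts of HBB and 0 of ALB, whereas replicates 1 and 2 had 0 and 1 counts of HBB and 227 and 208 of ALB. These are bulk RNA samples, in which fewer cells that express a gene and less RNA per cell cannot be told apart.

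Upstream sequence is shown for 6 members because the letters bound by the clock activators (E-box, CACGTG) contain the core bound by the hypoxia-inducible factors (ACGTG). BHLHE40, BHLHE41, PER1 and NR1D1 were called higher in hypoxia in parental cells, and PER2 and NPAS2, with and without ACGTG, are shown as members that were not. Each line gives 250 bases that end just before a RefSeq transcription start (GRCh38.p14), 5′ to 3′ on the gene's strand, with every ACGTG on either strand in capitals, extended to CACGTG where the E-box is complete.
BHLHE40: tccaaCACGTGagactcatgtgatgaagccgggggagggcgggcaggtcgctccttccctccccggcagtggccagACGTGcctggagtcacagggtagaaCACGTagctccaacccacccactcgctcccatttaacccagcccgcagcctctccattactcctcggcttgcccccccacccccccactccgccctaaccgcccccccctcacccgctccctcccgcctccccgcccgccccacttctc
BHLHE41: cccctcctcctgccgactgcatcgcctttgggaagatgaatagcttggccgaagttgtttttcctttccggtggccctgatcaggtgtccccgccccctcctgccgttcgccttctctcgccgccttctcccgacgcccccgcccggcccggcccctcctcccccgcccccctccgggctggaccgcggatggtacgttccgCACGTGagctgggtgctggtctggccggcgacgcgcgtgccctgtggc
PER1: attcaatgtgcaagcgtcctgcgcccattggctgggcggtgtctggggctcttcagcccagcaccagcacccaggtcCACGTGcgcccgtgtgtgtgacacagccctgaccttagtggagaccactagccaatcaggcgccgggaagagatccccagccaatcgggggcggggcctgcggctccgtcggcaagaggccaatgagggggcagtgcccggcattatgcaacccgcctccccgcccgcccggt
NR1D1: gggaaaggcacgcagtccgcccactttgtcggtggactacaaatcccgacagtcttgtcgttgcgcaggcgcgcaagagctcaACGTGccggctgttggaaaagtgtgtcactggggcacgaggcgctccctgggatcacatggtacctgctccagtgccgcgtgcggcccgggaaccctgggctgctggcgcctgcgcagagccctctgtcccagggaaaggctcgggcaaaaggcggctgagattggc
PER2: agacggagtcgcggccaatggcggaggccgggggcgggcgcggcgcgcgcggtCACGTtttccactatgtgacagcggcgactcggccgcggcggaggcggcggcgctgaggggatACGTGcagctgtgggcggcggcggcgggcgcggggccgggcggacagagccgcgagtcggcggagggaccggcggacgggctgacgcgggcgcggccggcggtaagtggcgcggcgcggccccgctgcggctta
NPAS2: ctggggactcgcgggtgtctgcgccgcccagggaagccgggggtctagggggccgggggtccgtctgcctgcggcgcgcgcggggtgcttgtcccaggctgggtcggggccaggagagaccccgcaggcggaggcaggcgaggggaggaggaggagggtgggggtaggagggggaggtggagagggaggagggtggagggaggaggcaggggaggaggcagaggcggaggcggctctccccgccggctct
These stretches lie at chr3:4979187-4979436 (plus strand), chr12:26125038-26125287 (minus), chr17:8152405-8152654 (minus), chr17:40100590-40100839 (minus), chr2:238288611-238288860 (minus) and chr2:100819889-100820138 (plus), in the order printed. The BHLHE40, BHLHE41, PER1, NR1D1 and PER2 stretches lie wholly or partly inside the GENCODE span of the gene, which has starts further upstream. All 10 members matched the RefSeq table, with 13 starts in all. ACGTG stood in 8 of the 13 stretches, in 8 of the members, against 18.5% of 35116 human promoter stretches of the same length. The BHLHE40 stretch held 4 matches to ACGTG, 2 of them from the 2 strands of a single E-box, and the NPAS2 and PER3 stretches held none. Members not called for hypoxia in parental cells held ACGTG as well: PER2 had 2 matches, CRY2 2, CLOCK 1 and CRY1 1. The full E-box CACGTG stood in 3 of the 13 stretches (PER1, BHLHE40 and BHLHE41), against 6.34% of all promoters. GCGTG, the core bound by AHR with ARNT, stood in 6 of the 13 stretches, against 32.2%. The half-site AGGTCA of the ROR and REV-ERB receptors stood in 3, against 12.1%, and the D-box TTATGTAA in 1, that of PER3, against 0.834%. Both strands were searched for every motif, and a match is a description of the letters, not of a bound site.

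Per length of exon, the 10 genes in normoxic parental cells ran over a wide range. BHLHE41 had 27.4 ± 1.49 CPM per kilobase of exon (SD, n = 3 here and below), BHLHE40 20.1 ± 0.945, CRY1 14.9 ± 0.17 and NPAS2 8.25 ± 0.199. PER3 followed with 3.27 ± 0.36, NR1D1 with 2.27 ± 0.29, CRY2 with 2.14 ± 0.417, PER2 with 1.80 ± 0.129, CLOCK with 1.396 ± 0.277 and PER1 with 0.844 ± 0.0798. The E-box competitors thus led the order and CLOCK and PER1 closed it. NR1D1 and CRY2, and CRY2 and PER2, were neighbours whose means differed by less than the larger of their SDs. Exon length here joined all transcripts of a gene, which was 6200 bases for CRY2, whose longest transcript has 4204. For NR1D1 both lengths were 2772 bases. Scaled by the longest transcript, CRY2 would stand above NR1D1.

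Hypoxia raised the repressors BHLHE40, BHLHE41 and NR1D1 and the period gene PER1 in parental cells. In both ARNT-knockout clones BHLHE40 and NR1D1 rose as well, but BHLHE40 rose less than in parental cells, and BHLHE41 was not called in either clone. CRY1 was called higher in both clones and not in parental cells. The activators CLOCK and NPAS2, and PER2, PER3 and CRY2, passed the test in none of the 3 genotypes. The edgeR quasi-likelihood test called 4 of the 10 genes in clone A, all higher, where it called 22.2% of all tested genes. In clone B it called 3, all higher, against 9.3% of all tested genes. In parental cells it called 4, all higher, against 30.2% of all tested genes. The median log2 change of the 10 genes was 0.41 in clone A, 0.37 in clone B and 0.15 in parental cells, while that of all tested genes was -0.01, -0.01 and -0.00. Calls required an adjusted p under 0.05, with Benjamini-Hochberg adjustment across the 13943 genes tested, and all adjusted p-values below come from that edgeR fit.

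BHLHE40 (chromosome 3, 4979116 to 4985323, GRCh38), a bHLH repressor that competes with CLOCK for E-boxes, had 77.6, 72.0 and 80.2 CPM in hypoxic clone A, against 42.9, 47.0 and 42.8 in normoxic clone A. Clone B had 116, 101 and 106 CPM in hypoxia, against 73.7, 77.3 and 72.2 in normoxia. Parental cells had 223, 214 and 225 CPM in hypoxia, against 75.9, 81.1 and 74.1 in normoxia. No hypoxic library overlapped with a normoxic library of its genotype, and all 3 hypoxic parental libraries lay far above all 6 hypoxic clone libraries. The log2 change was 0.79 ± 0.13 (SE) in clone A (adjusted p = 0.000216), 0.54 ± 0.13 in clone B (adjusted p = 0.0116) and 1.52 ± 0.13 in parental cells (adjusted p = 4.41e-09). Tested as a difference between responses, the change in clone A was lower than that in parental cells by 0.73 ± 0.19 on the log2 scale (clone A minus parental -0.73, adjusted p = 0.0168). In clone B it was lower by more (clone B minus parental -0.98 ± 0.19, adjusted p = 0.00151). The clone B call for hypoxia was lost without clone B hypoxia replicate 1, normoxia replicate 1 or normoxia replicate 3 (adjusted p = 0.0528, 0.0521 and 0.0536), and leaving out clone A hypoxia replicate 2 or normoxia replicate 2 removed the call for the clone A difference (adjusted p = 0.0511 and 0.0536).

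BHLHE41 (chromosome 12, 26120026 to 26125127), the paralog of BHLHE40, had 88.0, 98.4 and 103 CPM in hypoxic clone A, against 88.8, 88.1 and 87.5 in normoxic clone A. In clone B it had 97.6, 93.3 and 86.1 CPM in hypoxia, against 109.9, 114 and 116 in normoxia. Parental cells had 159, 156 and 154 CPM in hypoxia, against 111, 102 and 112 in normoxia. The hypoxic libraries lay above the normoxic ones in parental cells, below them in clone B, and overlapped with them in clone A. The log2 change was 0.13 ± 0.10 in clone A (adjusted p = 0.391), -0.29 ± 0.10 in clone B (adjusted p = 0.0702) and 0.53 ± 0.10 in parental cells (adjusted p = 3e-04). The response of clone B was lower than the parental response (difference -0.82 ± 0.14, adjusted p = 0.00064). For clone A the difference was -0.40 ± 0.14 and was not called (adjusted p = 0.101), with an unadjusted 95% interval of -0.70 to -0.10.

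**Figure D1:**
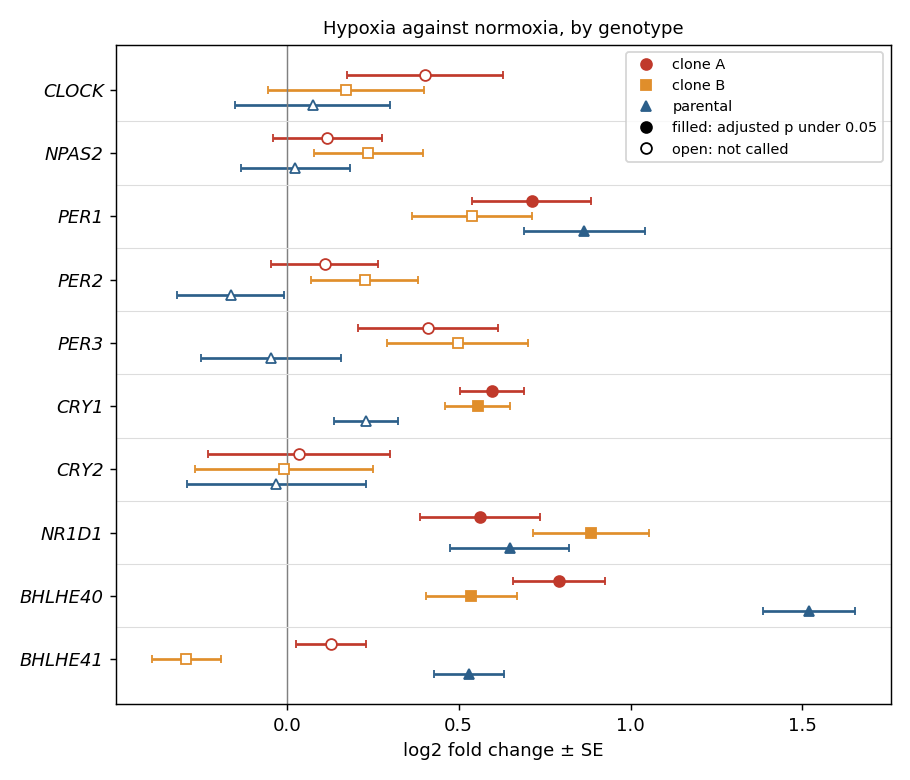
Log2 fold change of hypoxia against normoxia with its SE for the 10 clock genes in clone A, clone B and parental cells, from the edgeR fit; filled points were called. BHLHE40 stood at 1.52 in parental cells, beyond clone A (0.79) and clone B (0.54), while the BHLHE41 point is filled for parental cells alone.

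NR1D1 (chromosome 17, 40092787 to 40100725), the nuclear receptor that represses BMAL1, had 10.1, 9.87 and 9.91 CPM in hypoxic clone A, against 7.84, 5.97 and 6.47 in normoxic clone A. Clone B had 20.3, 13.8 and 13.9 CPM in hypoxia, against 8.65, 8.96 and 8.39 in normoxia, and clone B hypoxia replicate 1 stood above the other two. Parental cells had 9.92, 10.1 and 9.59 CPM in hypoxia, against 6.13, 7.17 and 5.59 in normoxia. Every hypoxic library exceeded every normoxic library of its genotype. The log2 change was 0.56 ± 0.17 in clone A (adjusted p = 0.0215), 0.88 ± 0.17 in clone B (adjusted p = 0.00182) and 0.65 ± 0.17 in parental cells (adjusted p = 0.00589). The difference of NR1D1 responses from parental cells was -0.09 in clone A (unadjusted 95% interval -0.59 to 0.42) and 0.24 in clone B (-0.26 to 0.73), and neither was called. The call in clone A was lost without hypoxia replicate 1, normoxia replicate 2 or normoxia replicate 3 (adjusted p = 0.0622, 0.101 and 0.0741). Of the exon length of NR1D1, 9.49% is shared with at least 1 other gene, the largest overlap being with THRA on the opposite strand. No source used here says whether the counting used strand.

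PER1 (chromosome 17, 8140472 to 8156506), a light- and stress-responsive period gene, had 13.9, 11.6 and 10.8 CPM in hypoxic clone A, against 8.03, 7.28 and 6.86 in normoxic clone A. Clone B had 8.09, 9.04 and 12.1 CPM in hypoxia, against 7.01, 6.48 and 6.64 in normoxia. Parental cells had 11.02, 10.9 and 10.4 CPM in hypoxia, against 5.76, 6.52 and 5.43 in normoxia. The groups did not overlap in any genotype. PER1 rose by 0.71 ± 0.17 on the log2 scale in clone A (adjusted p = 0.00485) and by 0.87 ± 0.18 in parental cells (adjusted p = 0.000517). In clone B the PER1 change of 0.54 ± 0.17 fell just short (adjusted p = 0.0507), and it was called with DESeq2 (adjusted p = 0.0233), with RLE scaling (0.0454), with only the compared libraries in the fit (0.00767) and without clone B hypoxia replicate 1 (0.0364). The difference from the parental response was -0.15 in clone A (unadjusted 95% interval -0.66 to 0.35) and -0.33 in clone B (-0.83 to 0.18).

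CRY1 (chromosome 12, 106991364 to 107093829), a cryptochrome that blocks CLOCK and BMAL1, had 139.5, 122 and 136 CPM in hypoxic clone A, against 86.5, 88.1 and 88.4 in normoxic clone A. Clone B had 104, 109 and 117 CPM in hypoxia, against 76.5, 76.2 and 71.8 in normoxia. Parental cells had 87.6, 91.6 and 86.2 CPM in hypoxia, against 74.5, 76.3 and 75.3 in normoxia. Again no group of hypoxic libraries overlapped with its normoxic group. The log2 change was 0.60 ± 0.09 in clone A (adjusted p = 0.00011), 0.56 ± 0.09 in clone B (adjusted p = 0.000606) and 0.23 ± 0.09 in parental cells (adjusted p = 0.0627). In parental cells CRY1 was called with DESeq2 (adjusted p = 0.0301) and with only the compared libraries (0.0102). Tested directly, the CRY1 responses of the clones were not called different from the parental response (clone A 0.37, adjusted p = 0.103; clone B 0.32, adjusted p = 0.195).

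The other 5 members were not called for hypoxia in any genotype. CLOCK (chromosome 4, 55427903 to 55547138) had 16.7 to 21.1 CPM in hypoxic clone A, against 13.3 to 15.3 in normoxic clone A, and 15.8 to 16.5 in hypoxic clone B, against 12.1 to 15.4 in normoxic clone B. In parental cells it had 16.8 to 17.7 CPM in hypoxia and 13.5 to 19.9 in normoxia. The CLOCK libraries thus did not overlap in the clones, all hypoxic ones being higher, and overlapped in parental cells, and the log2 change was 0.40 ± 0.23 for clone A (adjusted p = 0.214) and 0.17 ± 0.23 for clone B (adjusted p = 0.699). PER3 (chromosome 1, 7784320 to 7845177) shares 16.67% of its exon length with at least 1 other gene. Its largest overlap is with UTS2 on the opposite strand. PER3 had 33.04 to 34.1 CPM in hypoxic clone A, against 24.4 to 25.6 in normoxic clone A. In clone B it had 25.99 to 28.7 CPM in hypoxia, against 18.3 to 21.1 in normoxia. In parental cells it had 24.9 to 26.9 CPM in hypoxia and 23.3 to 28.9 in normoxia. PER3 too was higher in every hypoxic library of the clones and overlapped in parental cells, with log2 changes of 0.41 ± 0.20 in clone A, 0.50 ± 0.21 in clone B and -0.05 ± 0.20 in parental cells and adjusted p of 0.153, 0.128 and 0.889. With only the compared libraries in the fit, PER3 was called in both clones and CLOCK in clone A. PER2 (chromosome 2, 238244038 to 238290102) overlapped between hypoxia and normoxia in both clones, and in parental cells it had 10.7 to 11.3 CPM in hypoxia, against 11.4 to 13.1 in normoxia, without overlap (adjusted p = 0.461). CRY2 (chromosome 11, 45847118 to 45883248) overlapped in all 3 genotypes. NPAS2 (chromosome 2, 100820152 to 100996829) stood at 0.12 ± 0.16 in clone A, 0.24 ± 0.16 in clone B and 0.03 ± 0.16 in parental cells. A missed threshold does not show that these genes were unchanged: the unadjusted 95% interval for CLOCK in clone A, for example, ran from -0.07 to 0.87.

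Over all tested genes, the difference between the hypoxia response of clone A and that of parental cells was called for 6.23% and included 1 of the 10 clock genes, BHLHE40, which was lower. For clone B the share was 4.73% and the clock genes called were 2, BHLHE40 and BHLHE41, both lower. These comparisons share the parental libraries. Between clone B and clone A the hypoxia response was called different by edgeR for 0% of genes and for 0 of the 10. At an unadjusted p under 0.05 there were 870 genes, and DESeq2 called 36.

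Between clones and parental cells, NPAS2 was the member called in all 6 comparisons, higher each time. NPAS2, a bHLH-PAS activator that can stand in for CLOCK, was about 2-fold higher in both clones in regular medium, whereas CLOCK itself was not called there. BHLHE40 and BHLHE41 were lower in both clones in hypoxia, and CRY1 was higher. In normoxia edgeR called 3 of the 10 genes in clone A, 1 higher and 2 lower, against 31.6% of all tested genes, and 1 in clone B, NPAS2, against 26.5%. In hypoxia it called 4 in clone A, 2 higher and 2 lower, against 41.4%, and 5 in clone B, 3 higher and 2 lower, against 35.9%. The counts in clone A were near the shares over all genes, and that in clone B in normoxia was below its share. The median log2 difference of the 10 genes lay between -0.02 and 0.14 in these 4 comparisons, and that of all tested genes between 0.01 and 0.04. Both clones were set against the same parental libraries, so the comparisons are not independent.

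NPAS2 had 189, 197 and 195 CPM in clone A and 205, 204 and 197 in clone B, against 101, 103 and 106 in parental cells, all in normoxia. In hypoxia it had 252, 179.9 and 198 CPM in clone A and 247, 216 and 252 in clone B, against 111, 106 and 97.5 in parental cells. Every clone library in regular medium was above every parental library, in both oxygen conditions. The log2 difference in normoxia was 0.91 ± 0.16 for clone A (adjusted p = 7.12e-05) and 0.97 ± 0.16 for clone B (adjusted p = 3.52e-05). In hypoxia it was 1.00 ± 0.16 for clone A (adjusted p = 1.51e-05) and 1.18 ± 0.16 for clone B (adjusted p = 1.63e-06). Of the exon length of NPAS2, 6.27% is shared with at least 1 other gene. The largest overlap is with a gene on the opposite strand.

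BHLHE40 in normoxia was lower in clone A than in parental cells (log2 difference -0.80 ± 0.13, adjusted p = 3.57e-05), with no overlap. In clone B it was at -0.05 ± 0.13 (adjusted p = 0.838), and the libraries of clone B and parental cells interleaved. In hypoxia BHLHE40 was lower in clone A (-1.53 ± 0.13, adjusted p = 8.61e-10), at 0.347 times the parental level. It was also lower in clone B (-1.03 ± 0.13, adjusted p = 6.79e-07), at 0.489 times. BHLHE41 in hypoxia was lower in clone A (-0.70 ± 0.10, adjusted p = 4.39e-06) as well as clone B (-0.76 ± 0.10, adjusted p = 1.41e-06). In normoxia BHLHE41 was lower in clone A (-0.30 ± 0.10, adjusted p = 0.0273), but not when any of 5 of the 6 libraries was left out (adjusted p up to 0.0898), and stood at 0.06 ± 0.10 in clone B. CRY1 in hypoxia was higher in clone A (0.58 ± 0.09, adjusted p = 1.55e-05) as well as clone B (0.31 ± 0.09, adjusted p = 0.00999), where the call was lost without clone B hypoxia replicate 3 (adjusted p = 0.0578). NR1D1 in hypoxia was higher in clone B (0.70 ± 0.17, adjusted p = 0.0019) and at 0.01 ± 0.17 in clone A.

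**Figure D2:**
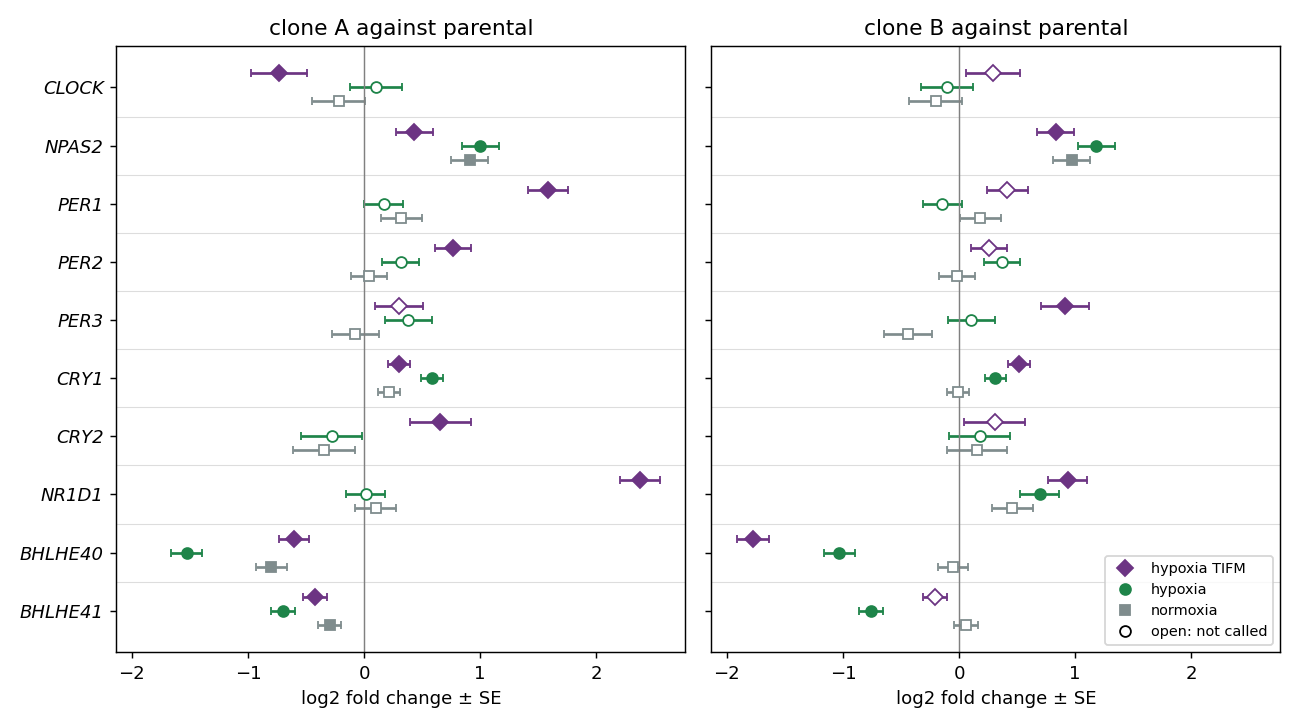
Log2 fold change of clone A (left) and clone B (right) against parental cells with its SE, in hypoxia with TIFM, hypoxia and normoxia; open points were not called. NPAS2 was called higher in all 6 comparisons, and BHLHE40 lay lowest in clone A in hypoxia (-1.53) and in clone B in hypoxia with TIFM (-1.78).

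TIFM, given only under hypoxia and therefore set against hypoxia in regular medium, raised NR1D1 and PER2 in all 3 genotypes. In clone A every one of the 10 clock genes was called: NR1D1, BHLHE40, PER1, PER2, CRY2 and BHLHE41 rose, and CLOCK, NPAS2, PER3 and CRY1 fell. NR1D1 reached the largest change of the 10, 7.55-fold in clone A. BHLHE40 was higher in clone A and parental cells and not called in clone B. The edgeR test called 10 of the 10 in clone A, 6 higher and 4 lower, against 67.2% of all tested genes. It called 4 in clone B, 3 higher and 1 lower, against 53.7%, and 4 in parental cells, 3 higher and 1 lower, against 42.2%, so the counts in clone B and parental cells were below or near the shares over all genes. The clone A count was 7 with only the compared libraries in the fit, 9 with RLE scaling and 9 without the filter on low counts. Leaving out each library in turn gave 8 to 10 for clone A. The median log2 change of the 10 was 0.66 in clone A, 0.22 in clone B and -0.11 in parental cells, and that of all tested genes -0.03, -0.03 and -0.00. In the same libraries the summed level of the 14 markers of other cell types was 11.1 to 11.7 CPM in clone A in TIFM, against 1.49 to 2.25 in hypoxic clone A. It was 1.05 to 3.96 CPM in clone B in TIFM, against 1.97 to 5.35 in hypoxic clone B, and 4.27 to 9.56 in parental cells in TIFM, against 1.35 to 2.11 in hypoxic parental cells. ALB had 227, 208 and 0 counts in clone A in TIFM, at most 3 in clone B in TIFM, and 101, 75 and 176 in parental cells in TIFM. In regular medium, clone B hypoxia replicate 3 had 117 counts of ALB. No other library in regular medium had more than 4. INS was at 0 in every library. The line's own markers changed with TIFM too: of 6, the test called 5 in clone A, 5 in clone B and 6 in parental cells. KRT8 was at 0.293 times its hypoxic level in clone A, 0.121 times in clone B and 0.306 times in parental cells, KRT19 at 0.374, 0.189 and 0.463 times and VIM at 0.531, 0.428 and 0.719 times, in the same order. KRT18 was at 0.229 times in clone B and 0.503 times in parental cells, and was not called in clone A (1.11 times). The other markers did not fall together with these. KRT7 was called higher in clone A (2.65 times) and parental cells (1.39 times) and not called in clone B. EPCAM was called higher in clone B (1.73 times) and parental cells (1.49 times) and lower in clone A (0.76 times). The part of these shifts and of RNA from other cell types in the changes described here was not tested.

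NR1D1 had 52.4, 82.7 and 91.2 CPM in clone A in TIFM, 24.3, 28.0 and 31.1 in clone B in TIFM, and 13.8, 15.6 and 14.2 in parental cells in TIFM. The 3 genotypes did not overlap, and each lay above its own hypoxic libraries in regular medium. The log2 change was 2.92 ± 0.18 in clone A (adjusted p = 3.25e-13), 0.80 ± 0.17 in clone B (adjusted p = 0.000243) and 0.56 ± 0.17 in parental cells (adjusted p = 0.00988). Clone A exceeded the parental response by 2.36 ± 0.24 (adjusted p = 5.96e-08). For clone B the difference was 0.24 ± 0.24 (adjusted p = 0.561). Without clone A TIFM replicate 3, the library with HBB counts, NR1D1 still changed by 2.77 in clone A (adjusted p = 1.68e-13).

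Of the period genes, PER2 was called higher with TIFM in all 3 genotypes and PER1 in clone A. PER1 had 19.2, 30.2 and 33.6 CPM in clone A in TIFM, 11.1, 11.7 and 14.01 in clone B in TIFM, and 8.53, 8.58 and 10.5 in parental cells in TIFM. Clone A libraries were all above the rest, and the parental ones all below. PER1 rose by 1.19 ± 0.17 in clone A (adjusted p = 1.1e-06), and changed by 0.33 ± 0.17 in clone B (adjusted p = 0.106) and -0.23 ± 0.17 in parental cells (adjusted p = 0.302), with a difference between clone A and parental responses of 1.42 ± 0.24 (adjusted p = 6.24e-05). PER2, the period protein most tied to clock phase, had 32.01, 33.1 and 20.8 CPM in clone A in TIFM, 24.8, 17.8 and 17.8 in clone B in TIFM, and 17.99, 15.5 and 17.1 in parental cells in TIFM, all above the hypoxic libraries in regular medium of their genotype. PER2 rose by 1.06 ± 0.16 in clone A (adjusted p = 1.48e-06), 0.49 ± 0.15 in clone B (adjusted p = 0.00949) and 0.61 ± 0.16 in parental cells (adjusted p = 0.00286). The clone B call was lost without clone B hypoxia replicate 3 or TIFM replicate 1 (adjusted p = 0.0566 and 0.0695). PER3 spread widely in TIFM, where clone A had 33.6, 22.1 and 15.7 CPM, clone B 45.3, 32.4 and 31.7, and parental cells 20.8, 12.3 and 25.1. It fell in clone A (-0.48 ± 0.21, adjusted p = 0.0404), where the groups overlapped and the call was lost under 8 of 11 other settings, with a change of -0.24 without TIFM replicate 3 (adjusted p = 0.284).

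BHLHE40 had 198, 271 and 157 CPM in clone A in TIFM, 107, 91.5 and 78.8 in clone B in TIFM, and 322, 335 and 292 in parental cells in TIFM. The genotypes did not overlap, and parental cells were highest. BHLHE40 rose by 1.45 ± 0.13 in clone A (adjusted p = 7.8e-10) and by 0.52 ± 0.13 in parental cells (adjusted p = 0.00246), and stood at -0.22 ± 0.13 in clone B (adjusted p = 0.159). Both differences from the parental response were called, in opposite directions: clone A minus parental was 0.93 ± 0.19 (adjusted p = 0.000356), and clone B minus parental was -0.74 ± 0.19 (adjusted p = 0.0113). BHLHE41 had 148, 124 and 138 CPM in clone A in TIFM, 155, 171 and 152 in clone B in TIFM, and 186, 214 and 151 in parental cells in TIFM. It rose in clone A (0.51 ± 0.10, adjusted p = 0.000107) as well as clone B (0.79 ± 0.10, adjusted p = 5.5e-07), and stood at 0.23 ± 0.10 in parental cells (adjusted p = 0.0667). The clone B response of BHLHE41 exceeded the parental response by 0.55 ± 0.14 (adjusted p = 0.0145).

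CLOCK fell with TIFM in clone A and parental cells, and NPAS2 fell in both clones. CLOCK had 7.86, 4.75 and 6.81 CPM in clone A in TIFM, 12.7, 12.1 and 14.8 in clone B in TIFM, and 13.4, 5.09 and 13.9 in parental cells in TIFM. Clone A was low in all 3 libraries, while in parental cells replicate 2 was the lowest and all 3 lay below the 16.8 to 17.7 CPM of hypoxic parental cells. CLOCK fell by 1.52 ± 0.24 in clone A (adjusted p = 4.24e-06) and by 0.68 ± 0.23 in parental cells (adjusted p = 0.0193), and stood at -0.28 ± 0.23 in clone B (adjusted p = 0.308). Without parental TIFM replicate 2 the CLOCK change in parental cells was -0.34 and not called (adjusted p = 0.116). NPAS2 had 98.2, 103 and 142 CPM in clone A in TIFM, 121, 132 and 200.4 in clone B in TIFM, and 86.0, 69.7 and 98.7 in parental cells in TIFM. It fell in clone A (-0.88 ± 0.16, adjusted p = 3.21e-05) as well as clone B (-0.66 ± 0.16, adjusted p = 0.00117), and changed by -0.31 ± 0.16 in parental cells (adjusted p = 0.124). The differences between clone A and parental responses, -0.84 ± 0.33 for CLOCK (adjusted p = 0.0452) and -0.57 ± 0.23 for NPAS2 (adjusted p = 0.0476), were lost under 12 and 13 of 17 other settings.

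**Figure D3:**
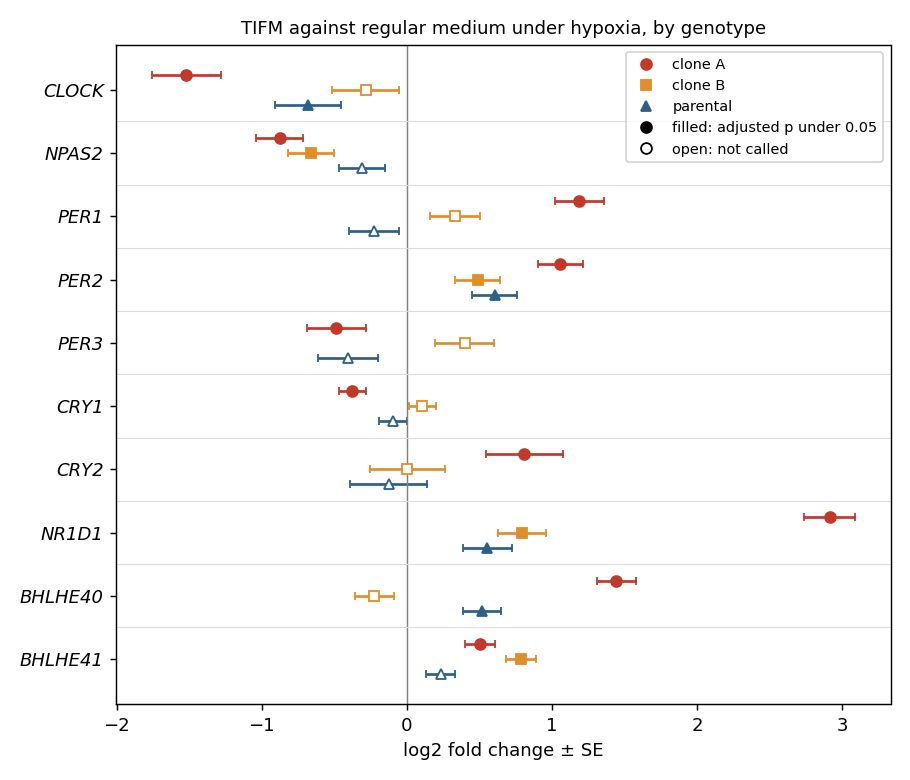
Log2 fold change of TIFM against regular medium, both under hypoxia, with its SE for the 10 clock genes in clone A, clone B and parental cells; filled points were called. All 10 points of clone A were called, with NR1D1 highest at 2.92 and CLOCK lowest at -1.52.

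The cryptochromes changed in clone A. CRY1 had 120.4, 90.2 and 95.9 CPM in clone A in TIFM, 114, 113 and 129 in clone B in TIFM, and 84.0, 81.6 and 83.0 in parental cells in TIFM. It fell by 0.38 ± 0.09 in clone A (adjusted p = 0.000999), a call lost with only the compared libraries in the fit (adjusted p = 0.0991), and changed by 0.11 in clone B and -0.09 in parental cells, neither called. CRY2 had 18.2, 29.6 and 8.64 CPM in clone A in TIFM, 19.9, 14.3 and 10.1 in clone B in TIFM, and 12.8, 13.4 and 9.56 in parental cells in TIFM. Its libraries in clone A lay on either side of the 10.4 to 11.2 CPM of hypoxic clone A. The CRY2 change of 0.81 ± 0.26 in clone A (adjusted p = 0.00894) rested on replicate 2: without it the change was 0.33 (adjusted p = 0.242).

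Across responses to TIFM, the difference between clone A and parental cells was called for 38.9% of tested genes and for 6 of the 10 clock genes, 4 higher (NR1D1, PER1, CRY2 and BHLHE40) and 2 lower (CLOCK and NPAS2). The CRY2 difference (0.94 ± 0.37, adjusted p = 0.0483) was lost under 12 of 17 other settings. For clone B the share was 10.4% and the clock genes were 2, BHLHE41 higher and BHLHE40 lower. With TIFM, clone A differed from parental cells in 9 of the 10 genes, 6 higher and 3 lower, against 61.7% of tested genes, and clone B in 5, 4 higher and 1 lower, against 47.5%. NR1D1 was higher in clone A by 2.37 ± 0.17 (adjusted p = 1.18e-11), and clone B exceeded parental cells by 0.94 ± 0.17 (adjusted p = 5.19e-05). BHLHE40 was lower in clone A (-0.60 ± 0.13, adjusted p = 0.000316), and clone B stood at 0.292 times the parental level (-1.78 ± 0.14, adjusted p = 5.88e-11). BHLHE41 was lower in clone A (-0.42 ± 0.10, adjusted p = 0.000827) and stood at -0.21 ± 0.10 in clone B (adjusted p = 0.0988). PER1 was higher in clone A by 1.58 ± 0.17 (adjusted p = 2.05e-08), as was PER2 by 0.77 ± 0.15 (adjusted p = 0.000125). PER3 was higher in clone B by 0.91 ± 0.21 (adjusted p = 0.000777).

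The differences of NPAS2, CRY1, CLOCK and CRY2 between clone A and parental cells in TIFM depended on single libraries. The number of members called in this comparison was 9, and 4 with only the compared libraries in the fit. NPAS2 was higher in clone A by 0.43 ± 0.16 (adjusted p = 0.0215), with groups that overlapped, and in clone B by 0.83 ± 0.16 (adjusted p = 0.000131). The NPAS2 call in clone A was lost without clone A TIFM replicate 3 (0.24, adjusted p = 0.205) or parental TIFM replicate 2 (0.31, adjusted p = 0.121). CRY1 was higher in clone B by 0.52 ± 0.09 (adjusted p = 6.62e-05) and in clone A by 0.30 ± 0.09 (adjusted p = 0.00703), the clone A call being lost without clone A TIFM replicate 1 (0.17, adjusted p = 0.0727). CLOCK was lower in clone A (-0.73 ± 0.24, adjusted p = 0.0104), a call lost without clone A TIFM replicate 2 (adjusted p = 0.0751) or parental TIFM replicate 1 or 3 (0.0807 and 0.0868). CRY2 was higher in clone A by 0.66 ± 0.26 (adjusted p = 0.0332), and by 0.18 without clone A TIFM replicate 2 (adjusted p = 0.552).

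**Figure D4:**
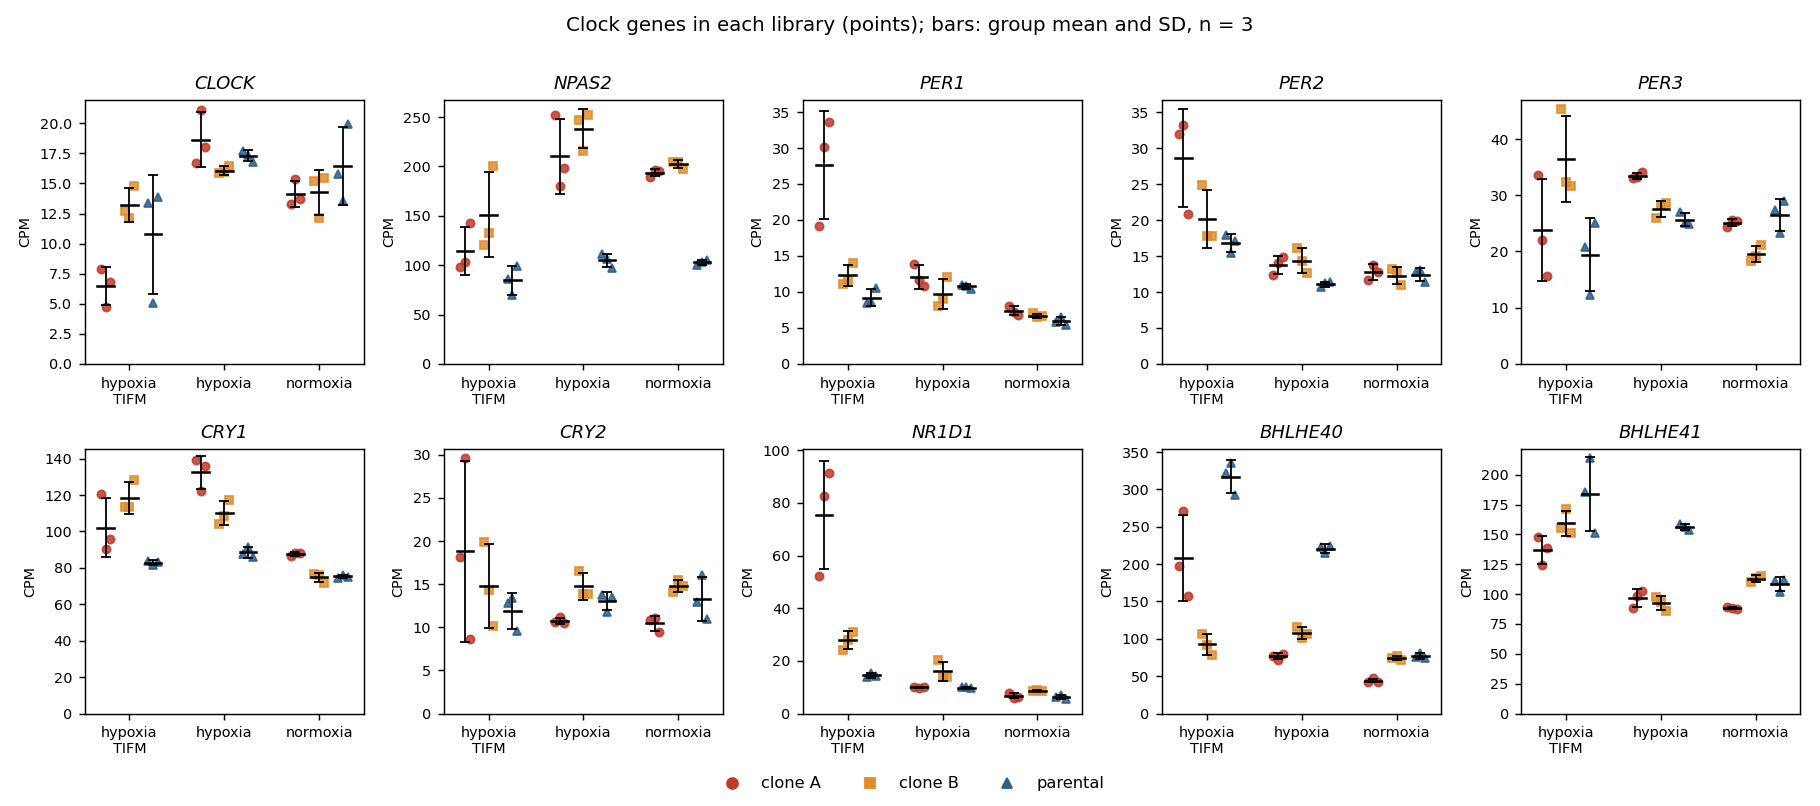
CPM of each clock gene in every library (points) with the group mean and SD (bars, n = 3), in hypoxia with TIFM, hypoxia and normoxia, for clone A, clone B and parental cells; each axis starts at 0. NR1D1 and PER1 were highest in clone A in TIFM, BHLHE40 was highest in parental cells in TIFM (292 to 335 CPM), and NPAS2 was higher in the clones than in parental cells in regular medium.

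The rest of the clock loop was described with 8 further genes that were tested. RORA, the receptor that activates BMAL1 from the sites NR1D1 uses, rose with hypoxia in parental cells and in neither clone. RORA averaged 5.55 ± 0.704 CPM in hypoxic clone A, against 4.32 ± 0.868 in normoxic clone A. In clone B it averaged 3.55 ± 0.353 in hypoxia and 3.30 ± 0.411 in normoxia, and in parental cells 14.3 ± 0.978 in hypoxia and 4.21 ± 0.53 in normoxia. The log2 change in parental cells was 1.77 ± 0.19 (adjusted p = 1e-07), and the response was lower in clone A (-1.41 ± 0.26, adjusted p = 0.0012), while for clone B the difference was -1.66 ± 0.27 (adjusted p = 0.000234). Of the 8 genes, hypoxia gave 0 calls in clone A, 2 in clone B (CIART higher, TIMELESS lower) and 3 in parental cells (RORA and CIART higher, TIMELESS lower), beside 22.2%, 9.3% and 30.2% of all tested genes in the same order. The CIART calls, at an adjusted p of 0.0449 in clone B and 0.0214 in parental cells, were lost when any of 5 of the 6 libraries compared was left out in clone B, and any of 4 in parental cells. The TIMELESS call in clone B was lost under 8 of 11 other settings. BMAL1 was not called for hypoxia in any genotype, but every hypoxic library exceeded every normoxic library of its genotype. Its log2 change was 0.43 ± 0.16 in clone A (adjusted p = 0.0605), 0.45 ± 0.16 in clone B (adjusted p = 0.0794) and 0.28 ± 0.16 in parental cells (adjusted p = 0.203).

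NR1D2, the paralog of NR1D1, was not called for hypoxia in any genotype. It averaged 69.1 ± 2.63 CPM in clone A and 63.9 ± 2.69 in clone B, against 26.7 ± 1.87 in parental cells, in normoxia, and was called higher in both clones in every condition (log2 differences of 1.04 to 1.61). TIFM raised NR1D2 by 1.20 ± 0.16 in clone A, 1.61 ± 0.17 in clone B and 1.23 ± 0.17 in parental cells. BMAL2, a partner of CLOCK and NPAS2, was also higher in both clones in every condition, with 254 ± 3.38 CPM in clone A and 184 ± 3.43 in clone B, against 111 ± 0.186 in parental cells, in normoxia. CIART, a repressor of the CLOCK and BMAL1 pair, rose with TIFM in clone A, with 17.98 ± 3.32 CPM in TIFM, against 5.598 ± 1.00 in hypoxia (log2 change 1.68 ± 0.19, adjusted p = 2.11e-08). BMAL1 fell with TIFM in clone A (-0.66 ± 0.17, adjusted p = 0.00121) as well as clone B (-0.44 ± 0.16, adjusted p = 0.0269), the clone B call being lost without any of 4 of the 6 libraries.

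Among the 4 bZIP genes that carry clock output, NFIL3 and TEF rose with hypoxia in clone A (22.2% of all tested genes called), TEF in clone B (9.3%), and both in parental cells (30.2%). NFIL3, the repressor at D-boxes, averaged 27.8 ± 3.54 CPM in hypoxic clone A, against 21.2 ± 1.19 in normoxic clone A, and 22.9 ± 3.71 in hypoxic clone B, against 19.7 ± 0.917 in normoxic clone B. In parental cells NFIL3 averaged 35.4 ± 0.316 CPM in hypoxia and 17.1 ± 0.782 in normoxia. Its hypoxia response was lower than the parental one in clone A (-0.66 ± 0.17, adjusted p = 0.0149) as well as clone B (-0.83 ± 0.17, adjusted p = 0.00265), and leaving out clone A hypoxia replicate 2 removed the clone A call (adjusted p = 0.0566). TIFM raised NFIL3 in all 3 genotypes, by 0.74 ± 0.12 in clone A, 1.24 ± 0.12 in clone B and 1.36 ± 0.12 in parental cells. HLF, an activator at D-boxes, was low and was called higher with TIFM in all 3 genotypes. Its counts over the 3 libraries summed to 257 in TIFM and 19 in hypoxia in clone A (log2 change 4.03 ± 0.52, adjusted p = 2.13e-07), and to 112 in TIFM and 19 in hypoxia in clone B (2.74 ± 0.53, adjusted p = 0.000118). In parental cells the HLF counts were 39 in TIFM and 2 in hypoxia (adjusted p = 0.000169), too few in hypoxia to size the change. TEF fell with TIFM in clone B (-0.51 ± 0.16, adjusted p = 0.0101), a call lost without clone B TIFM replicate 1. The NFIL3 call for hypoxia in clone A (0.39 ± 0.12, adjusted p = 0.0182) was lost without clone A hypoxia replicate 1, normoxia replicate 2 or normoxia replicate 3. DBP was not called for hypoxia or TIFM in any genotype.

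**Figure D5:**
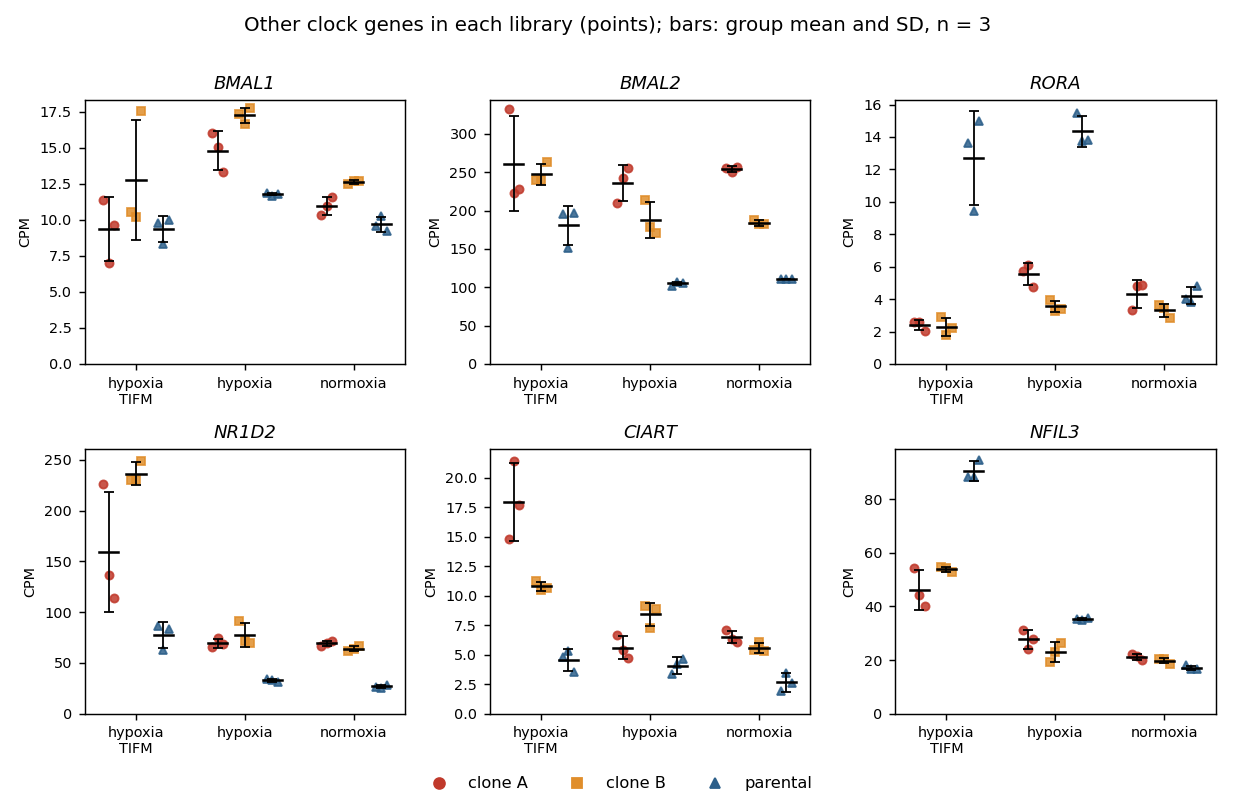
CPM of 6 further clock genes in every library (points) with the group mean and SD (bars, n = 3) by condition and genotype; each axis starts at 0. RORA in hypoxia lay between 13.7 and 15.5 CPM in parental cells and at most 6.12 in the clones, and NR1D2 and BMAL2 were higher in the clones than in parental cells in normoxia.

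Of 11 clock kinases and ubiquitin ligases, 10 were tested and hypoxia gave calls for 3 in clone A (22.2% of all tested genes), 2 in clone B (9.3%) and 1 in parental cells (30.2%). GSK3B, a kinase that phosphorylates several clock proteins, rose in each (0.62 ± 0.11 in clone A, 0.43 ± 0.11 in clone B and 0.45 ± 0.11 in parental cells). TIFM gave calls for 9 of the 10 in clone A (67.2% of all tested genes), 3 in clone B (53.7%) and 4 in parental cells (42.2%). CSNK1E, the casein kinase that phosphorylates PER proteins, rose with TIFM by 1.82 ± 0.12 in clone A, 1.36 ± 0.12 in clone B and 1.35 ± 0.12 in parental cells, and GSK3B fell in each. Of the exon length of CSNK1E, 21.07% is shared with other genes, among them TPTEP2-CSNK1E on the same strand. USP2, a deubiquitinase of clock proteins, was higher in both clones than in parental cells in every condition, with 10.0 ± 2.32 CPM in clone A and 5.83 ± 1.48 in clone B, against 1.53 ± 0.494 in parental cells, in TIFM. Among 15 other bHLH-PAS and PAS coactivator genes, 11 were tested, and EPAS1 and HIF1A differed in their hypoxia response in both clones. EPAS1, the HIF2A subunit, averaged 274 ± 4.90 CPM in clone A and 441 ± 48.5 in clone B, against 506 ± 25.2 in parental cells, in hypoxia. Set against the parental response, that of EPAS1 was lower in clone A (-1.10 ± 0.19, adjusted p = 0.000468) as well as clone B (-0.83 ± 0.19, adjusted p = 0.0083). The HIF1A response was higher by 1.33 ± 0.23 in clone A and by 1.44 ± 0.23 in clone B.

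Over the 9 group means of log2 CPM, the non-member genes most like BHLHE40 included RXRA and SYDE1 (Pearson r of 0.964 and 0.959). Those most like NR1D1 were METAP1, EIF4A3 and UBAP1 (0.989, 0.987 and 0.985), and those most like NPAS2 were CYP2U1, LRRC34 and TNIK (0.980, 0.972 and 0.967). Among the members, the highest coefficients were 0.949 between PER2 and NR1D1, 0.907 between PER1 and NR1D1, and 0.827 between PER1 and PER2, and the lowest was -0.871 between CLOCK and PER2. BHLHE40 and BHLHE41 had a coefficient of 0.797. These describe 9 points that share media, genotypes and library scaling.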

How the data were processed

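The deposited table holds raw read counts per gene, which the submitters' processing notes credit to HISAT2 alignment to GRCh38 and counting with featureCounts; their versions and settings, strand included: not given in the sources used here. All entries were whole numbers, and each of the 27 columns matched the title of 1 library. Genes were named, located and measured for exon length with GENCODE v29 (GRCh38).

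The members and all other gene lists were chosen with earlier results of these data known. The text names all 10 members, genes of the other lists that were called in at least 1 comparison (at most 6 per comparison, by size of change), and, for the 3 members called in most comparisons, the genes most like each (up to 3). Some genes that these rules name are not reported here. Untested or uncalled list genes named in a sentence are named there as such.

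All libraries were fitted together (edgeR 4.0.16, limma 3.58.1, R 4.3.3): filterByExpr by group (minimum count 10, minimum total count 15), TMM scaling, 1 coefficient for each of 9 groups, robust quasi-likelihood F tests with 18 residual degrees of freedom and Benjamini-Hochberg adjustment over 13943 genes for each of 17 comparisons. The fit was tested on simulated data. Differences between responses are contrasts of the same fit. CPM values are TMM-scaled and depend on library composition. Alternatives were DESeq2 1.42.0, RLE scaling, no filter, only the libraries compared, a replicate block and leaving out each library in turn. No library repeated another of its group: the lowest chi-square per gene between replicates was 4.60. Libraries of different groups were not compared in this way. Replicate numbers were not used to pair the libraries in the main fit. Intervals are for each gene alone.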

Additional observations from a re-analysis of the deposited data

Results flagged for a closer look

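The results below were singled out because the test of a difference between the response of a clone and that of parental cells passed the edgeR threshold. Each value is the clone's log2 response minus the parental one.

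For hypoxia, the difference in clone A was -0.7268 for BHLHE40 (adjusted p = 0.0168), -1.409 for RORA (adjusted p = 0.0012) and -0.6572 for NFIL3 (adjusted p = 0.0149). In clone B it was -0.9822 for BHLHE40 (adjusted p = 0.00151), -0.8205 for BHLHE41 (adjusted p = 0.00064), -1.665 for RORA (adjusted p = 0.000234) and -0.8324 for NFIL3 (adjusted p = 0.00265). All 4 genes were called higher with hypoxia in parental cells. In the clones, BHLHE40 was called higher in both and NFIL3 in clone A.

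For TIFM in clone A, the difference was 2.361 for NR1D1 (adjusted p = 5.96e-08), 1.416 for PER1 (adjusted p = 6.24e-05), 1.522 for CIART (adjusted p = 9.67e-05), 0.9251 for BHLHE40 (adjusted p = 0.000356) and 0.9367 for CRY2 (adjusted p = 0.0483). It was below 0 for CLOCK (-0.8403, adjusted p = 0.0452), NPAS2 (-0.5688, adjusted p = 0.0476), BMAL2 (-0.6392, adjusted p = 0.00549), RORA (-1.027, adjusted p = 0.0038) and NFIL3 (-0.62, adjusted p = 0.00406). For TIFM in clone B it was -0.7431 for BHLHE40 (adjusted p = 0.0113) and 0.5534 for BHLHE41 (adjusted p = 0.0145). Libraries of clone A in TIFM also had the widest spread of the 9 groups (biological coefficient of variation 29.2%), and the part of that spread in these differences was not tested.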

How the results depend on the processing

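Over 850 values each recomputed with a single setting changed, 799 stayed on the same side of the threshold, 20 lost the call, 31 gained it and 0 reversed a called direction; over 1320 values with a library left out the counts were 1245, 60, 15 and 0. With only the libraries compared in the fit, the number of the 10 clock genes called was 7 for hypoxia in clone B (3 in the fit of all libraries). Against parental cells in normoxia it was 5 for clone A (3) and 3 for clone B (1); for clone A it was 7 in hypoxia (4) and 4 in TIFM (9). For the difference from the parental hypoxia response it was 4 for clone A (1) and also 4 for clone B (2), and for the difference in TIFM response of clone A it was 3 (6). Without the filter on low counts, that last count was also 3. DESeq2 gave 2 for clone B against parental cells in normoxia (1) and 2 for the difference in hypoxia response of clone A (1). Leaving out each library in turn gave 0 to 1 for the difference in hypoxia response of clone A (0 without its hypoxia or normoxia replicate 2) and 1 to 2 for clone B against parental cells in normoxia (2 without parental normoxia replicate 2). For the difference in TIFM response of clone A it gave 3 to 7, moving without clone A hypoxia replicate 3, clone A TIFM replicate 2, any hypoxic parental library or parental TIFM replicate 1 or 3. A fit with only the libraries compared tests fewer genes and estimates the spread from fewer libraries. The fit of all libraries shares 1 spread per gene over all groups, which were unequal in spread. The biological coefficient of variation ran from 4.55% (clone B normoxia) to 29.2% (clone A in TIFM). P-values of that fit thus do not rest on the spread of the compared groups alone. The part of this in the changed counts was not tested, nor was the cause for the other settings.

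Same-numbered libraries of different groups showed little shared deviation over all groups (mean correlation 0.0308 over 108 pairs, lowest -0.44, against -0.0156 for other numbers). Of 27 libraries, 12 were closest to their own number. The numbers were not taken as pairs. In TIFM the TMM factor fell from replicate 1 to 3 in clone A (0.890, 0.833 and 0.777) and clone B (0.988, 0.951 and 0.925). In parental cells it was 0.964, 0.970 and 0.953. From replicate 1 to 3 in TIFM, the CPM of NR1D1, PER1 and NPAS2 rose and that of PER3 fell in both clones. The other members did not rise or fall throughout in both clones, and in parental cells only PER1 did so. Whether the TIFM libraries alone deviated by number was not tested. With the replicate block, the clock genes called for hypoxia were 4 in clone A, 3 in clone B and 4 in parental cells, and no count moved by over 1.5 times. With 3 libraries a group, CLOCK, CRY2 and PER3 had standard errors of 0.20 to 0.37, which limits the changes that could pass the test.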
